A study of Homo sapiens with 6 samples.

Results

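The genes described here encode 10 surface antigens of hematopoietic progenitors and proB leukemia: FLT3, PROM1 (CD133), CD34, KIT (CD117), CSPG4 (NG2), CD44, CD38, MME (CD10), IL7R (CD127) and CD9. They were selected by gene name from the 35410 genes of the count table, in which each name had 1 entry. RNA was measured by MACE-Seq, a method that reads the 3′ end of each polyadenylated mRNA, with 3 biological replicates for SEM::EGR3 and 3 for SEM::mock. SEM is an established B cell precursor leukemia cell line of proB type with the KMT2A::AFF1 fusion. SEM::EGR3 carries an inducible vector for overexpression of the transcription factor EGR3, SEM::mock carries the empty vector, and both lines received 1 µg/mL doxycycline 48 h before RNA extraction. Both groups thus share the cell line, the fusion and the doxycycline, and each is 1 derived cell line, so line and transgene cannot be told apart.

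FLT3 and KIT are related receptor tyrosine kinases that bind the cytokines FLT3 ligand and stem cell factor and transmit growth signals in progenitors. IL7R is the alpha chain of the interleukin 7 receptor and pairs with IL2RG to signal through JAK1 and JAK3 in lymphoid progenitors. PROM1 and CD34 are glycoproteins of stem and progenitor cells, CD44 binds hyaluronan, CSPG4 is a proteoglycan used in the diagnosis of KMT2A-rearranged leukemia, CD9 is a tetraspanin, and CD38 and MME are enzymes at the cell surface. Typical KMT2A-rearranged infant leukemia is described as MME negative and CSPG4 positive.

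EGR factors bind GC-rich DNA, and the consensus of the family is GCGTGGGCG. The RefSeq promoter windows (GRCh38.p14), which reach from 250 bases before to 50 bases after a transcript start, were searched on both strands for GCGTGGGCG, for the related GCGGGGGCG and for GTGGGCG, the last of which is contained in the first. All 10 genes had a window, 19 windows in all. GCGTGGGCG was found in none of the 19, against 0.795% of 35116 windows in the reference. GCGGGGGCG was found in 1 window, that of CD9, against 5.07% of all windows, and GTGGGCG in 1 window, that of PROM1, against 9.52%. The stretches outside annotated exons are shown for FLT3 and CSPG4, which were higher in SEM::EGR3, for KIT, which was lower, and for CD9, whose window holds a match. They are written 5′ to 3′ on the strand of the gene, with the match in capitals.

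FLT3, chr13:28100593-28100826, minus strand: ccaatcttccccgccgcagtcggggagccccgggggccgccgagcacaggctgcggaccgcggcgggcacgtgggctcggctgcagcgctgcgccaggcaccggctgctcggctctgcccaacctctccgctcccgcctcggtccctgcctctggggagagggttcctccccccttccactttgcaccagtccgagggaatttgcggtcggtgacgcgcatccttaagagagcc
CSPG4, chr15:75712849-75713098, minus strand: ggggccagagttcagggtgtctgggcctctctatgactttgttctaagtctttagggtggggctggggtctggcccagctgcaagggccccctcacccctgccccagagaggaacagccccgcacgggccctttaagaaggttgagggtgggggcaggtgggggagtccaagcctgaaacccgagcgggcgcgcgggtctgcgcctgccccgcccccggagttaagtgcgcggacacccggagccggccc
KIT, chr4:54657707-54657917, plus strand: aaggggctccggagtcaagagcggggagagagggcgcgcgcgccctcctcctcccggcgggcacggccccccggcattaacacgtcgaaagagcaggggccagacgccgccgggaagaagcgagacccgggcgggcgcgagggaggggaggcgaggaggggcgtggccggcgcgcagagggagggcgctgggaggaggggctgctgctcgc
CD9, chr12:6200150-6200315, plus strand: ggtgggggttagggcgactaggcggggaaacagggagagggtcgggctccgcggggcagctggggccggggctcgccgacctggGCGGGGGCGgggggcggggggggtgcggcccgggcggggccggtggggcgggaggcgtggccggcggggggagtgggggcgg

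These windows are reference sequence, and no binding was measured in the present data. The PROM1 match lies in an annotated exon and is not shown. A window without a match only lacks these letters.

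Summed counts per library ran from 5286115 to 6181388 for SEM::mock and from 7293092 to 15106018 for SEM::EGR3, so low counts were known less precisely in SEM::mock. Levels are given as CPM (counts per 1000000 counts of the tested genes, after TMM scaling), in which 3 counts correspond to 0.502 to 0.588 CPM in SEM::mock and to 0.194 to 0.404 CPM in SEM::EGR3. Intervals and limits from counts cover counting error only, since whether molecular identifiers were counted is not given in the sources used here. EGR3 itself had counts of 8, 10 and 6 in SEM::mock and of 9768, 4952 and 5557 in SEM::EGR3, as the labels state. The proB label did not hold equally for both lines. Of 12 proB marker genes, 4 exceeded 3 counts in every SEM::mock library and 10 in every SEM::EGR3 library. The summed level of the list was 165 to 173 CPM in SEM::mock and 666 to 699 CPM in SEM::EGR3. Most of the SEM::mock sum came from TCF3, at a mean of 131 CPM there, and IKZF1, at 36.1 CPM.

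In SEM::mock, the B-lineage factors PAX5 and EBF1 had 1, 1 and 2 and 0, 0 and 0 counts, the surface marker CD22 had 2, 1 and 1, and the receptor component CD79A had 1, 3 and 3. In SEM::EGR3, PAX5 had 3410, 1443 and 1760 counts and EBF1 2058, 925 and 1145. Thus the proB markers PAX5, EBF1, CD22 and CD79A were at or near 0 in the libraries labelled SEM::mock, which goes against their proB label. These libraries may not be the labelled line, which was not tested. Each fold change below compares the libraries as deposited, and EGR3 expression cannot be told apart from a difference between cell types in it. TCF3, which is broadly expressed, and IKZF1 were present in both lines. DNTT and RAG2 had at most 2 counts in any library of either line. Since all 3 SEM::mock libraries share this pattern, no comparison without them could be made.

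**Figure D1:**
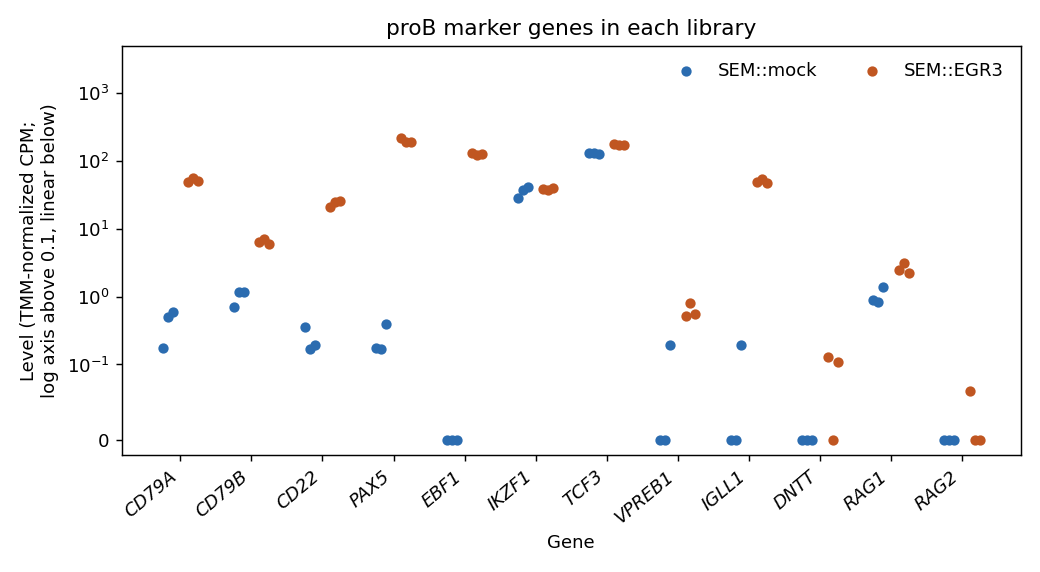
Level of each of the 12 proB marker genes (x axis) in TMM-normalized CPM (y axis, log above 0.1 and linear below) in the 3 SEM::mock (blue) and 3 SEM::EGR3 (orange) libraries, 1 point per library. EBF1 has 0 counts in all 3 SEM::mock libraries, and the points of CD79A, CD22, PAX5 and IGLL1 lie lower in all SEM::mock libraries than in all SEM::EGR3 libraries.

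The other marker lists did not have equal levels either. The summed level of 8 measured erythroid and megakaryocyte markers was 1176 to 1265 CPM in SEM::mock and 2697 to 2857 CPM in SEM::EGR3, with 3 genes higher and 3 lower among 6 tested. HBB had no count in SEM::EGR3 and GP9 none in SEM::mock. The 8 measured myeloid markers summed to 285 to 292 CPM in SEM::mock and 108 to 112 CPM in SEM::EGR3, with MPO at 0 in SEM::mock, and the 4 epithelial markers to 741 to 776 and 388 to 410 CPM. The 6 T cell markers summed to 60.4 to 66.5 and 79.9 to 88.5 CPM, with CD5 at 0 in SEM::mock. Of the 4 tested T cell markers, 2 were higher and 2 lower in SEM::EGR3. The mean of TRAC was 1.21 CPM in SEM::mock and 74.7 CPM in SEM::EGR3, and that of CD3D 58.1 and 6.26 CPM. The 6 stromal and endothelial markers summed to 6.36 to 9.04 and 67.8 to 69.6 CPM, with COL3A1 at 0 in both lines and CDH5 and VWF at 0 in SEM::mock, and the 4 natural killer markers to 5.53 to 6.72 and 3.37 to 4.77 CPM. The part of these markers in the differences described here was not tested. In bulk RNA, fewer cells of a type and less RNA per cell cannot be told apart.

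SEM::EGR3 was compared with SEM::mock to ask how EGR3 expression goes along with the antigen genes. FLT3, PROM1, CSPG4, IL7R and MME were higher in SEM::EGR3, with almost no counts in SEM::mock. KIT and CD44 were lower, 2.38-fold and 2.35-fold, with counts in every library of both lines. CD9 did not pass the threshold, and CD34 and CD38 had too few counts in either line to be tested. Of the 8 genes that passed the filter on low counts, FLT3, PROM1, CSPG4, IL7R and MME passed only through their counts in SEM::EGR3. These 5 had to differ, so their adjusted p-values are no support for a difference. Related genes with few counts in SEM::mock share this limit. The 5 genes higher and 2 lower stand beside 36.5% of all 15465 tested genes called higher and 32.0% called lower at an adjusted p-value under 0.05. All 8 tested antigen genes had libraries that did not overlap between the lines, as had 70.1% of all tested genes. Adjusted p-values come from the quasi-likelihood test of edgeR, adjusted by Benjamini-Hochberg over all tested genes.

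**Figure D2:**
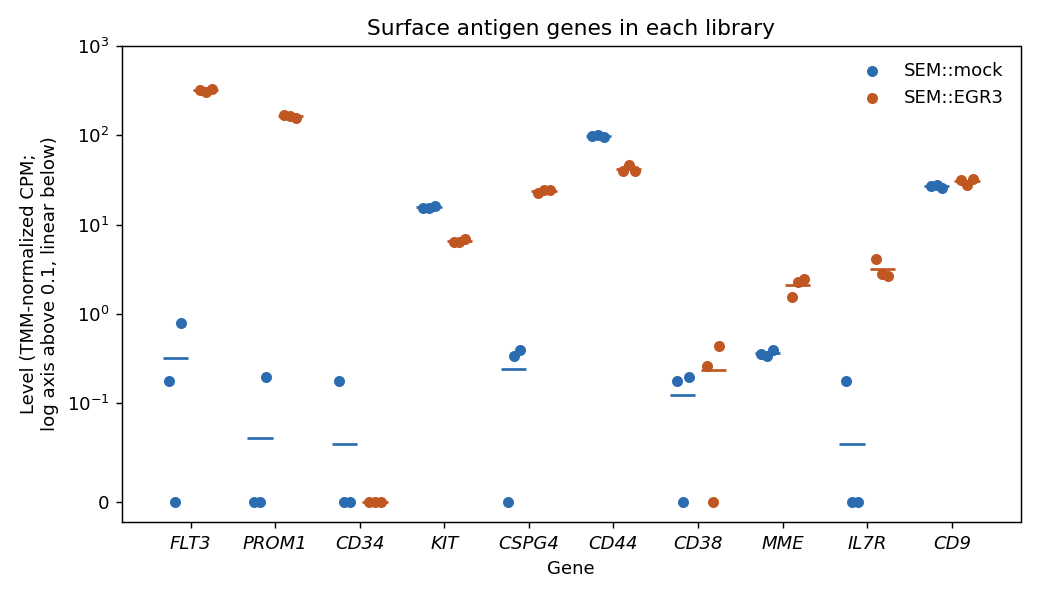
Level of the 10 antigen genes (x axis) in TMM-normalized CPM (y axis, log above 0.1 and linear below) in the 3 SEM::mock (blue) and 3 SEM::EGR3 (orange) libraries, 1 point per library with a line at the group mean. FLT3 lies at 308 to 327 CPM in SEM::EGR3 and at 0 to 0.784 CPM in SEM::mock, whereas KIT and CD44 lie lower in all SEM::EGR3 libraries.

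Of the receptor tyrosine kinases, FLT3 (ENSG00000122025, GRCh38 chromosome 13, 28003274 to 28100592, minus strand) had counts of 1, 0 and 4 in SEM::mock and of 4998, 2285 and 2961 in SEM::EGR3. Every SEM::EGR3 library was far above every SEM::mock library. The level was 0.320 ± 0.411 CPM in SEM::mock and 319 ± 10.1 CPM in SEM::EGR3 (SD, n = 3 each). The ratio of the summed counts per library size was 1072 (95% counting interval 459 to 3302). The fitted log2 fold change was 9.99 (SE 0.17, adjusted p = 2.23e-24 by edgeR). FLT3 passed the filter only through SEM::EGR3, so its adjusted p-value adds no support. SE here and below is the absolute log2 fold change divided by the square root of the F statistic. Intervals of log2 fold changes use it. It can be too small where SEM::mock has few counts. By DESeq2, an alternative test, the SE was 0.65 for FLT3, 1.18 for PROM1, 0.74 for CSPG4, 1.24 for IL7R and 0.74 for MME. The 5 counts in SEM::mock set the size of the FLT3 log2 fold change, which was 11.62 without SEM::mock replicate 3 and 9.37 without SEM::mock replicate 2.

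KIT (ENSG00000157404, chromosome 4, 54657918 to 54740715, plus strand) had counts of 87, 92 and 83 in SEM::mock and of 100, 47 and 63 in SEM::EGR3. Relative to library size this was 15.4, 15.4 and 16.3 CPM in SEM::mock and 6.45, 6.33 and 6.96 CPM in SEM::EGR3. The raw counts overlapped between the lines, whereas the levels scaled to library size did not. The log2 fold change was -1.25 (SE 0.14, 95% interval -1.53 to -0.97, adjusted p = 1.57e-08 by edgeR), a level 2.38-fold lower in SEM::EGR3. Both kinases thus moved in opposite directions in the same libraries.

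The ligands of both receptors were hardly detected. FLT3LG, the FLT3 ligand, had counts of 1, 1 and 0 in SEM::mock and of 2, 1 and 0 in SEM::EGR3. KITLG, the gene of stem cell factor, had 8, 5 and 5 and 11, 4 and 9 counts, and neither passed the filter. Of 11 genes of the same receptor class and its ligands, 6 were tested, of which 3 were higher and 3 lower, with a median log2 fold change of 0.52 against 0.03 over all tested genes. Besides FLT3, the receptor PDGFRB was high in SEM::EGR3, with 1366, 682 and 813 counts against 0, 1 and 0 in SEM::mock (ratio 1497, 95% counting interval 268 to 59141). The single count sets its fitted log2 fold change, which was 10.22 with all libraries and 12.58 without SEM::mock replicate 2.

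The related receptor PDGFRA was lower in SEM::EGR3, at 51, 46 and 33 counts in SEM::mock and 51, 21 and 25 in SEM::EGR3 (log2 fold change -1.36, SE 0.20, adjusted p = 1.88e-06 by edgeR). As in the pair of FLT3 and KIT, PDGFRB and PDGFRA differed in direction. Of their ligands, PDGFB was higher with a log2 fold change of 4.59 (SE 0.25) and PDGFA with 2.08 (SE 0.19). PDGFC, with a log2 fold change of -1.04 (SE 0.19), and CSF1, the ligand of CSF1R, with -1.14 (SE 0.17), were lower. CSF1R was not tested, with 0 counts in all SEM::mock libraries and 15, 4 and 8 counts in SEM::EGR3.

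IL7R (ENSG00000168685, chromosome 5, 35852695 to 35879603, plus strand) had counts of 1, 0 and 0 in SEM::mock and of 64, 21 and 24 in SEM::EGR3. All SEM::EGR3 libraries lay higher, but at only 4.13, 2.83 and 2.65 CPM. The count ratio was 57.0 (95% counting interval 10.0 to 2273). The log2 fold change was 5.49 (SE 0.64, adjusted p = 4.7e-08 by edgeR) and 7.86 without SEM::mock replicate 1, which holds the only count. IL7R passed the filter only through SEM::EGR3, so its adjusted p-value adds no support.

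Of 6 genes that act with IL7R, 3 could be tested, of which 2 were higher and 1 lower. IL2RG, the common gamma chain that pairs with IL7R, had counts of 62, 86 and 68 in SEM::mock and of 895, 372 and 414 in SEM::EGR3 (log2 fold change 2.00, SE 0.11, adjusted p = 7.59e-14 by edgeR). JAK3, the kinase bound to this chain, had 0 counts in all 3 SEM::mock libraries and 240, 162 and 181 counts in SEM::EGR3, which was at least 35.4-fold higher against a limit of 3 counts per library. JAK1, the kinase bound to IL7R, was slightly lower (log2 fold change -0.27, SE 0.07, adjusted p = 0.00116 by edgeR). The ligands were not tested: IL7 had 0 counts in SEM::mock and 2 in each SEM::EGR3 library, and TSLP had 3, 1 and 8 against 10, 1 and 8. CRLF2, which pairs with IL7R in the TSLP receptor, had at most 1 count in any library.

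PROM1 (ENSG00000007062, chromosome 4, 15963076 to 16084378, minus strand) had counts of 0, 0 and 1 in SEM::mock and of 2586, 1209 and 1418 in SEM::EGR3. The 3 SEM::EGR3 libraries lay close together at 167, 163 and 157 CPM. The count ratio was 2727 (95% counting interval 489 to 107743). The log2 fold change was 11.08 (SE 0.20, adjusted p = 1.19e-23 by edgeR) and 13.46 without SEM::mock replicate 3, the library with the single count. PROM1 passed the filter only through SEM::EGR3, so its adjusted p-value adds no support. The gene FGFBP2 overlaps the PROM1 gene body on the same strand, so reads of the overlap could be assigned to either gene. FGFBP2 had 82, 55 and 65 counts in SEM::EGR3 and 0 in SEM::mock, few against those of PROM1.

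CD34 (ENSG00000174059, chromosome 1, 207880972 to 207911402, minus strand), the classic progenitor antigen, had 1, 0 and 0 counts in SEM::mock and 0 counts in every SEM::EGR3 library. It was thus not detectable at this depth in SEM::EGR3, where up to 0.194 to 0.404 CPM would be allowed by 0 counts. Among 5 sialomucins and prominins, 3 were tested. PODXL, a CD34 relative, was slightly lower, its paralog PODXL2 was lower (log2 fold change -1.40, SE 0.10, adjusted p = 6.31e-12 by edgeR), and CD164 was higher (0.47, SE 0.06). The prominin PROM2 had 0 counts in SEM::mock and 2, 5 and 1 in SEM::EGR3.

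CSPG4 (ENSG00000173546, chromosome 15, 75674322 to 75712848, minus strand) had counts of 0, 2 and 2 in SEM::mock and of 348, 183 and 220 in SEM::EGR3. The levels of the SEM::EGR3 libraries were 22.4, 24.7 and 24.3 CPM, all above those of SEM::mock. The count ratio was 98.2 (95% counting interval 38.2 to 361). CSPG4 had a fitted log2 fold change of 6.54 (SE 0.29, adjusted p = 4.21e-16 by edgeR). It passed the filter only through SEM::EGR3, so its adjusted p-value adds no support. The pseudogene CSPG4P12 had at most 2 counts in any library.

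Of 10 genes for ligands and partners of CSPG4, 9 were tested, of which 4 were higher and 2 lower. All 3 collagen VI chain genes, whose product binds CSPG4, were higher. COL6A1 had counts of 0, 1 and 0 in SEM::mock and of 59, 33 and 39 in SEM::EGR3 (log2 fold change 5.78, SE 0.57, and 8.14 without SEM::mock replicate 2). For COL6A2 the log2 fold change was 3.66 (SE 0.53, and 4.53 without SEM::mock replicate 1), and for COL6A3 1.85 (SE 0.22). The integrin chain ITGA4 was higher by a log2 fold change of 1.83 (SE 0.14). The cytoskeletal protein gene CTTNBP2 was lower (-1.26, SE 0.12) and the adaptor gene SDCBP was among the lower genes too. The stromal collagens COL1A1 and COL1A2, which are no partners of CSPG4, also differed, with 20, 25 and 16 counts of COL1A1 in SEM::mock and 685, 315 and 389 in SEM::EGR3.

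CD44 (ENSG00000026508, chromosome 11, 35138870 to 35232402, plus strand) had counts of 560, 606 and 485 in SEM::mock and of 623, 346 and 364 in SEM::EGR3. This was 98.5 ± 3.22 CPM in SEM::mock and 42.3 ± 3.70 CPM in SEM::EGR3 (SD, n = 3 each), without overlap of the libraries. The log2 fold change was -1.23 (SE 0.07, 95% interval -1.38 to -1.09, adjusted p = 6.94e-14 by edgeR), a level 2.35-fold lower. Of 12 genes for hyaluronan synthases, receptors and linkers of CD44, 7 were tested, with 2 higher and 3 lower. The lower ones were the 3 linkers of CD44 to the actin cytoskeleton, EZR (log2 fold change -0.77, SE 0.06), MSN (-0.61, SE 0.06) and RDX. The protease MMP14, which cleaves CD44, was higher, with 8, 8 and 4 counts in SEM::mock and 1196, 589 and 698 in SEM::EGR3 (log2 fold change 6.01, SE 0.15, adjusted p = 2.76e-21 by edgeR). The hyaluronan synthases HAS1, HAS2 and HAS3 had too few counts for a test, at most 8 in any library.

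**Figure D3:**
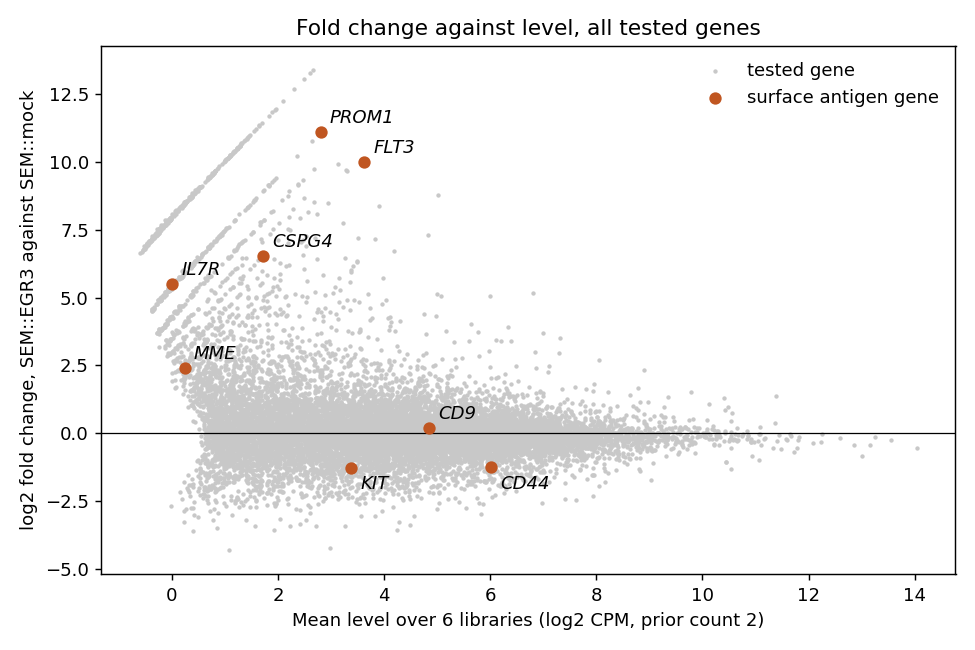
log2 fold change of SEM::EGR3 against SEM::mock (y axis) against the mean log2 CPM over 6 libraries (x axis) of all 15465 tested genes (grey) and the 8 tested antigen genes (orange). FLT3 and PROM1 stand near the upper edge, where the grey diagonals are genes with 0 or few counts in SEM::mock and fitted values that depend on the prior count, and KIT and CD44 stand below 0.

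MME (ENSG00000196549, chromosome 3, 155024124 to 155183729, plus strand) had counts of 2, 2 and 2 in SEM::mock and of 24, 17 and 22 in SEM::EGR3. The levels in SEM::EGR3 were low, at 1.55, 2.29 and 2.43 CPM, but above all SEM::mock libraries. The count ratio was 5.49 (95% counting interval 2.39 to 15.5) and the log2 fold change 2.42 (SE 0.47, adjusted p = 6.48e-05 by edgeR). MME passed the filter only through SEM::EGR3, so its adjusted p-value adds no support. The antisense transcript MME-AS1 had 1 count in a single SEM::EGR3 library. CD38 (ENSG00000004468, chromosome 4, 15778275 to 15853230, plus strand) had counts of 1, 0 and 1 in SEM::mock and of 4, 0 and 4 in SEM::EGR3. With a count ratio of 2.09 (95% counting interval 0.418 to 20.2), a difference of CD38 was not detectable at this depth.

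Of 15 surface enzymes and ligands related to both, 9 were tested, of which 5 were higher and 2 lower. ENPP4, an ectonucleotide hydrolase, had 0 counts in all SEM::mock libraries and 125, 38 and 65 in SEM::EGR3, which was at least 12.6-fold higher against the same limit. NT5E, the nucleotidase CD73, had 0, 1 and 0 counts against 65, 20 and 35 (log2 fold change 5.63, SE 0.61, and 7.99 without SEM::mock replicate 2). PECAM1, a ligand of CD38, had 1, 4 and 2 counts against 144, 59 and 82 (log2 fold change 4.36, SE 0.33, adjusted p = 1.46e-11 by edgeR). BST1, the paralog of CD38, was not tested, at 0, 1 and 0 counts against 7, 6 and 3.

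CD9 (ENSG00000010278, chromosome 12, 6199715 to 6238271, plus strand) had counts of 151, 164 and 132 in SEM::mock and of 487, 205 and 296 in SEM::EGR3. After scaling this was 26.7 ± 0.792 CPM in SEM::mock and 30.6 ± 2.65 CPM in SEM::EGR3 (SD, n = 3 each). The lowest SEM::EGR3 library, at 27.6 CPM, lay just above the highest SEM::mock library, at 27.5 CPM. The log2 fold change was 0.20 (SE 0.09, 95% interval 0.01 to 0.40, adjusted p = 0.0539 by edgeR), so the difference did not pass the threshold. It passed without SEM::EGR3 replicate 2 (0.26, adjusted p = 0.017 by edgeR).

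CD9 belongs to the tetraspanins, of which 22 genes and partners were in the table and 20 were tested, with 7 higher and 10 lower and a median log2 fold change of -0.22. TSPAN17 was higher, with counts of 259, 277 and 253 in SEM::mock and 8158, 4134 and 4782 in SEM::EGR3 (log2 fold change 3.51, SE 0.06, adjusted p = 9.93e-24 by edgeR). TSPAN7 (3.48, SE 0.49), TSPAN33 (2.28, SE 0.31, and 2.87 without SEM::mock replicate 2) and CD81 (1.14, SE 0.05) were higher too. CD81, a coreceptor component of B cells, had counts of 1654, 1871 and 1541 in SEM::mock and of 10830, 4898 and 5865 in SEM::EGR3. TSPAN6 (-2.44, SE 0.37) and TSPAN12 (-1.59, SE 0.32) were lower.

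**Figure D4:**
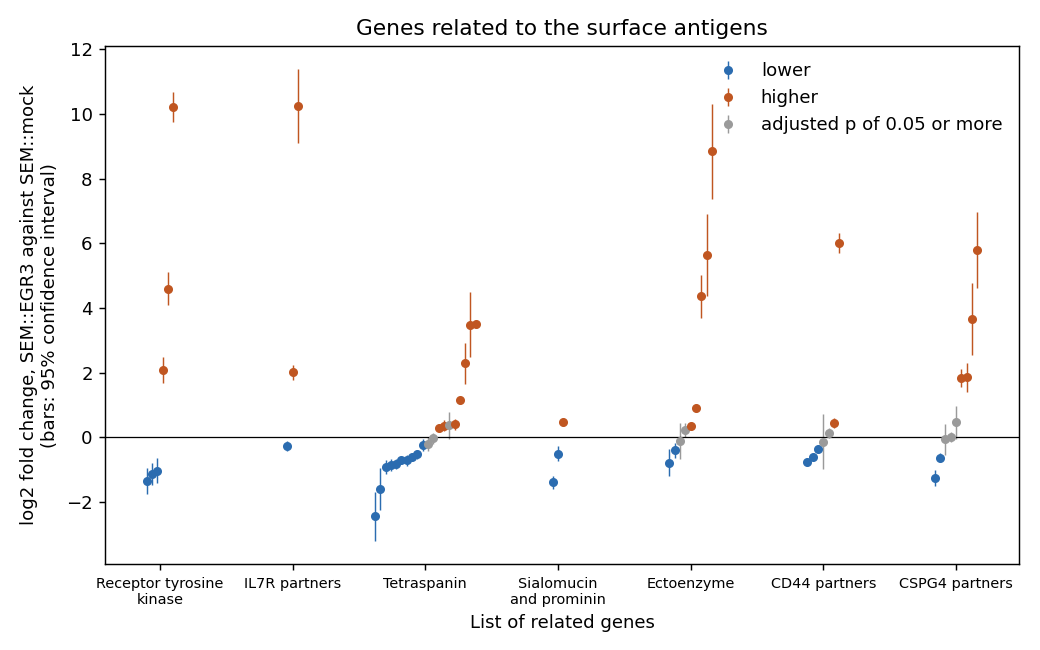
log2 fold change of SEM::EGR3 against SEM::mock (y axis, points with 95% confidence intervals) of the 57 tested genes related to the antigens, by list (x axis), colored orange when higher, blue when lower and grey when the adjusted p-value was 0.05 or more. Both directions occur in each list. JAK3 and ENPP4 had 0 counts in SEM::mock, so their points depend on the prior count. The intervals are built from the SE described for FLT3 and can be too narrow where SEM::mock has few counts.

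Over all 7 lists, 81 of 82 genes were in the table and 57 were tested. Of these 57, 24 were higher and 23 lower, beside 36.5% and 32.0% of all tested genes. The 57 genes had a median log2 fold change of 0.01, against 0.03 over all tested genes. If a log2 fold change of 1 or more in size was also required, 17 of the 57 genes were higher and 7 lower. The shares of all tested genes were 16.7% higher and 8.50% lower. Genes that passed the filter only through SEM::EGR3 are among the 57, so these counts describe the lists and are not a test of them.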

How the data were processed

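RNA of 3 SEM::mock and 3 SEM::EGR3 replicates was measured by MACE-Seq. The authors deposited 1 table of 35410 genes. It holds raw counts per gene and library, which were used here. It also holds CPM values named as TPM, which the authors scaled to library totals of 7172067 to 20310325, of which 73.6% to 75.8% lie in the listed genes. The deposited size-factor normalized counts, a signal scale, were not used. The authors' own comparison fills further columns (log2 fold changes with their p-values and false discovery rates), none of which was used. The submitters' processing notes name GRCh38, bcl2fastq, Bowtie2 and HTSeq. Versions and the use of strand are not given in the sources used here. The column headings spell the gene ERG3 and were matched to the EGR3 titles. 0 columns of per-sample values could not be matched to a sample.

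The test was edgeR 4.0.16 in R 4.3.3 (filterByExpr, TMM, glmQLFit and glmQLFTest, without a further term), with Benjamini-Hochberg adjustment over 15465 tested genes and a threshold of 0.05. The procedure was tested on simulated data. Counting intervals (95%) are exact conditional binomial (Clopper-Pearson) intervals of the summed counts, scaled by library size, and limits use 3 counts per library. Genes below the filter were not tested. Replicates differed by more than counting noise (chi-square per degree of freedom 1.71 to 3.12). The labels call them biological replicates without naming separate cultures, so the spread may be partly technical.

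The members and lists were chosen with earlier results of these data known. Named were the 10 antigen genes, EGR3, their ligands and receptor partners, antisense transcripts and pseudogenes of them, proB markers, and of each list up to 6 genes with the largest absolute log2 fold change of at least 1. One proB marker is not reported here. Other genes were named after their values were seen. Positions are from GENCODE 29 (GRCh38), which holds 97% of the gene identifiers, and windows from RefSeq (GRCh38.p14). DESeq2 1.42.0, other scalings, other filters, a block for the replicate number, the omission of each library and a minimum fold change were tried as alternatives.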

Additional observations from a re-analysis of the deposited data

How the results depend on the processing

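KIT and CD44 kept their direction and passed the threshold under every alternative. FLT3, PROM1, CSPG4, IL7R and MME did so under every alternative that gave them a value. In the main test these genes passed the filter only through SEM::EGR3, so this is no further support for a difference. Over the libraries left out in turn, log2 fold changes ranged from 9.37 to 11.62 for FLT3, 10.55 to 13.46 for PROM1, 5.96 to 6.97 for CSPG4, 4.96 to 7.86 for IL7R, 2.36 to 2.66 for MME, -1.29 to -1.22 for KIT, -1.29 to -1.18 for CD44 and 0.16 to 0.26 for CD9. Without SEM::EGR3 replicate 2 or 3, MME had no value because it did not pass the filter. CD9 passed the threshold without normalization factors (log2 fold change 0.28), with upper-quartile normalization (0.22), with the library totals behind the deposited CPM (0.29) and with at least 10 counts in every library (0.25). DESeq2 did not call it (0.20, adjusted p = 0.165 by DESeq2). Requiring 10 counts in every library removed FLT3, PROM1, CSPG4, IL7R and MME, left 1 antigen gene called higher, CD9, and 15 related genes called higher instead of 24, because fewer genes were tested. With a log2 fold change of 1 or more in size also required, 2581 of all tested genes were higher and 1315 lower, against 5640 and 4954, and 7 related genes were lower against 23. The median log2 fold change of all genes was 0.03, 0.11 without normalization factors and 0.12 with the deposited totals.

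With the replicate number as a block, 5 antigen genes were higher and 2 lower, as without it, and the log2 fold change of CD9 was 0.20 (adjusted p = 0.0949 by edgeR). Libraries of the same number did not deviate together (r = -0.11, -0.06 and -0.03 across genes), so the numbers were not treated as pairs. Counts of 0 to 4 in SEM::mock limit how well the size of the higher genes is known.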

Other observations

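The genes near the antigen genes were looked up in GENCODE 29 after the values of PAN3 had been seen, so the list was chosen from the data. Within 100 kb of an antigen gene, 15 other genes were tested, of which 7 were higher and 4 lower in SEM::EGR3, beside 36.5% higher and 32.0% lower among all tested genes. PAN3, a subunit of a deadenylase complex, lies 37.9 kb from FLT3 on the opposite strand and had counts of 117, 108 and 83 in SEM::mock and of 10651, 4733 and 6144 in SEM::EGR3 (log2 fold change 5.18, adjusted p = 3.45e-25 by edgeR). PAN3-AS1, an antisense transcript 36.3 kb from FLT3 on the strand of FLT3, had 21, 35 and 19 counts against 938, 453 and 616. Where it overlaps PAN3, reads could be told apart only by strand, the use of which is not given. The third tested neighbour of FLT3, the pseudogene ATP5F1EP2, did not pass the threshold (log2 fold change -0.06, adjusted p = 0.45 by edgeR).

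TAPT1, a membrane protein gene 76.1 kb from PROM1, had counts of 95, 75 and 90 in SEM::mock and of 1660, 765 and 910 in SEM::EGR3 (log2 fold change 2.74, adjusted p = 1.67e-18 by edgeR). VWF, an endothelial and platelet gene 74.9 kb from CD9, had 0 counts in all SEM::mock libraries and 30, 21 and 26 in SEM::EGR3, which was at least 4.71-fold higher against a limit of 3 counts per library. By contrast, TNFRSF1A, 90.5 kb from CD9, was lower (log2 fold change -0.85, adjusted p = 8.01e-10 by edgeR). None of the 4 tested neighbours of CSPG4 was higher: IMP3 and SNX33 were lower, and SNUPN and PTPN9 did not pass the threshold, except that PTPN9 was lower without SEM::mock replicate 2 (log2 fold change -0.45, adjusted p = 0.00156 by edgeR). No neighbour of KIT, CD44, MME or IL7R was tested.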
